A study of Arabidopsis thaliana with 15 samples.

Results

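The comparison described here set whole rosettes of an activation-tagged Arabidopsis thaliana line against rosettes of its parent, called the reference line. It used 6 of the 15 mRNA sequencing libraries of the series, 3 activation-tagged and 3 reference, chosen by their labels alone. Both lines were Col-0 plants that carried a GFP reporter aimed at the plastids by the RbcS transit peptide and driven by the GLDPA promoter of Flaveria trinervia, which is active around the leaf veins. The activation-tagged line carried in addition a T-DNA with the GLDT promoter of F. trinervia, another vein-preferring promoter, that had landed in the coding region of the transcription factor gene NAC052. A single activation-tagged line was compared, and whether it holds further insertions is not given in the sources used here. An effect of the insertion in NAC052 and of anything else that differs from the parent line cannot be told apart. Plants were grown on soil to day 28 in long days, and the hour of harvest is not given in the sources used here. The other 3 lines of the series (CRISPR/Cas, GLDT::NAC052 and GLDT::5'truncatedNAC052) served only for context.

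NAC proteins are plant transcription factors that bind DNA through a conserved domain near their amino terminus. NAC052 and its close relative NAC050 act as repressors and bring the histone demethylase JMJ14 to their target genes, where removal of methyl groups from histone tails lowers transcription. NAC052 is also known for its part in post-transcriptional gene silencing. Nitrate reductase, the clock proteins, superoxide dismutases and dehydrins, which recur below, belong to pathways that leaves adjust to nitrogen, time of day, copper supply and cold or drought.

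Each value below is a read count per gene as deposited, or that count divided by the scaled library size and given as CPM, that is per 1000000 counts. The activation-tagged libraries held 28074380 to 38340865 counts and the reference libraries 32064138 to 36691617 counts, all on lane 1. Within a line, libraries correlated with Pearson's r of 0.981 to 0.986 over log2 CPM, against 0.966 to 0.98 between the lines, and the first principal component, with 42.8% of the variance, separated the lines. Of the markers of other organs, 1 of 8 root genes and 4 of 9 flower genes passed the filter on low counts, with none called, and the summed level of the root list was 4.26 to 5.69 CPM in activation-tagged libraries and 4.58 to 7.19 CPM in reference libraries. The flower list summed to 9.59 to 14.2 CPM in activation-tagged libraries and 8.94 to 13.2 CPM in reference libraries, with AP1 and LFY at 0 in all 6. The 6 vein and bundle sheath markers were all tested and none was called, with a median log2 fold change of -0.06. At an unadjusted edgeR p under 0.05 there was 1 vein gene, higher, which DESeq2 called, and 0 root and 0 flower genes, and the tested vein genes summed to 499 to 578 CPM in activation-tagged libraries and 467 to 652 CPM in reference libraries.

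NAC052, the gene that carries the inserted promoter, rose in the activation-tagged line, and so did NAC053, the next gene downstream, while NAC050 on the other side did not pass the test. The 3 genes lie in a row on the forward strand of chromosome 3 (TAIR10.1), NAC050 at chr3:3264194-3267695, NAC052 at chr3:3267825-3271202 and NAC053 at chr3:3271217-3274176. NAC052 had 59.5, 57.3 and 74.05 CPM in the activation-tagged libraries, against 18.4, 19.1 and 18.1 CPM in the reference libraries. Every activation-tagged library was far above every reference library, and the third was the highest. The log2 fold change was 1.78 (SE 0.11, edgeR adjusted p = 0.000171), and an exact two-sided permutation test of the CPM values gave p = 0.1, the smallest that 3 libraries against 3 allow. When all 15 libraries shared 1 fit the log2 fold change was the same but the edgeR adjusted p was 0.137, and in that fit the GLDT::NAC052 libraries, whose NAC052 levels differed widely, entered the estimate of the spread. The count covers the whole gene model, so it does not tell a full transcript from a shortened one. The authors report that RT-PCR did not detect the main full-length leaf transcript in this line, while RNA of the later exons increased. They list the line as lacking endogenous NAC052 function and holding a truncated form.

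NAC053, which encodes a membrane-bound NAC factor, had 33.8, 34.1 and 37.5 CPM in activation-tagged rosettes, against 11.2, 9.74 and 9.68 CPM in reference rosettes. Its log2 fold change of 1.78 (SE 0.09, edgeR adjusted p = 8.66e-05) was as large as that of NAC052. The annotated end of NAC052 and the annotated start of NAC053 are only 14 bases apart, and that stretch is shown because both genes moved together.
NAC052-NAC053 junction, chr3:3271195-3271224, forward strand: tttttcaaCTTCAAATATATTCtctattta
The capitals mark the 14 bases between the gene models, and the 8 lower-case bases on each side belong to NAC052 and NAC053. The table does not show whether reads run across the junction.

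NAC050 had 23.5, 22.3 and 24.1 CPM in activation-tagged libraries, against 20.4, 21.6 and 20.7 CPM in reference libraries. The ranges did not overlap, yet the log2 fold change was only 0.16 (SE 0.08, edgeR adjusted p = 0.283). NAC050 and NAC052 are close copies, and how reads that match both were assigned is not given in the sources used here. AT3G10510, the second gene downstream, had at most 3 counts in any of the 6 libraries and was not tested, and the second annotated feature upstream, a non-coding RNA, is not in the table. JMJ14, the demethylase partner, averaged 34.9 CPM in activation-tagged rosettes and 36.9 CPM in reference rosettes, a log2 fold change of -0.08 (SE 0.07, edgeR adjusted p = 0.541). SGS3, a gene silencing factor, had a log2 fold change of 0.33 (SE 0.13, edgeR adjusted p = 0.176).

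**Figure D1:**
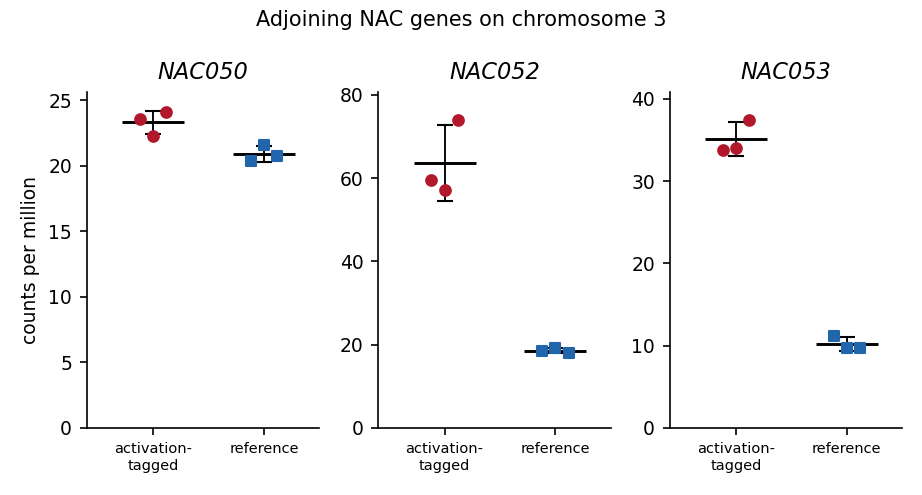
CPM of NAC050, NAC052 and NAC053 in each library, with the activation-tagged libraries left of the reference libraries; the bar is the mean and the whiskers are 1 SD of 3 libraries. NAC052 and NAC053 stand at 57.3 to 74.05 CPM and 33.8 to 37.5 CPM in the activation-tagged line, above all reference libraries, while NAC050 differs little.

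Across the 18763 genes that passed the filter, 58 were higher and 130 lower in the activation-tagged line by more than 2-fold at an adjusted p under 0.05, called differential below. These are 0.309% and 0.693% of the genes tested. Without the limit on the fold change, 624 genes rose and 381 fell, or 3.33% and 2.03% of the genes tested. The 6 libraries of the lines did not overlap for 5198 genes, or 27.7%, so separation of the libraries alone is common in these data. Without scaling beyond the library totals, the median over all genes, as a log2 fold change, was -0.11, against -0.01 with scaling, and the genes without a fold limit became 308 that rose and 646 that fell. Without activation-tagged replicate 1, 2 or 3 the differential genes numbered 112, 81 and 112, and without reference replicate 1, 2 or 3 they numbered 242, 133 and 97. Without the fold limit, leaving out a library gave 312 to 706 genes.

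By number, the nitrate list, the largest of the 24 with 49 members, held the most genes that rose. By share, photorespiration held more, with 11 of 16 tested against 13 of 42. No test compared the lists. Plants reduce nitrate in the cytosol with nitrate reductase (NIA1 and NIA2), pass the nitrite to the plastid for reduction to ammonium by nitrite reductase (NIR1), and build the ammonium into glutamine and glutamate. Of 49 genes of nitrate uptake, assimilation and response, 42 were tested, 13 rose and 1 fell, against the 3.33% and 2.03% of all genes. The median log2 fold change of the tested members was 0.13, against -0.01 for all genes. The number that rose was 10 to 12 when each library was left out in turn.

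NIA1 had 112, 155 and 142 CPM in the activation-tagged libraries, against 32.9, 31.6 and 39.5 CPM in the reference libraries. NIA2 had 560.2, 744 and 639 CPM, against 233, 209 and 242 CPM. For both nitrate reductase genes the lowest activation-tagged library was more than 2-fold above the highest reference library. The log2 fold changes were 1.98 (SE 0.14, edgeR adjusted p = 0.000834) for NIA1 and 1.51 (SE 0.11, edgeR adjusted p = 0.000593) for NIA2. NIR1, the next step, had 160.2, 192 and 205 CPM in activation-tagged rosettes, against 93.1, 103 and 89.1 CPM in reference rosettes, a log2 fold change of 0.97 (SE 0.10, edgeR adjusted p = 0.00271).

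Some regulators of the nitrate response rose with the enzymes. BT2, a BTB and TAZ domain scaffold protein that represses nitrate uptake genes, had 161, 164 and 162 CPM in the activation-tagged libraries, against 51.3, 47.9 and 55.4 CPM in the reference libraries. The activation-tagged values were nearly the same in all 3 libraries, and the log2 fold change was 1.65 (SE 0.08, edgeR adjusted p = 5.78e-05). LBD39, a repressor of nitrate-responsive genes, had 19.5, 21.8 and 22.8 CPM, against 7.20, 6.64 and 7.23 CPM. Its log2 fold change was 1.60 (SE 0.10, edgeR adjusted p = 0.00022). Its relative LBD38 rose by a log2 fold change of 0.53, whereas LBD37 had 0.16 (edgeR adjusted p = 0.226). HHO3 and HHO2, nitrate-induced MYB-like repressors, rose by 0.68 and 0.39 on the log2 scale. None of the other regulators of the list (NLP6, NLP7, HHO1, HRS1, TGA1, TGA4, BT1, CIPK8, CIPK23 and ANR1) was called.

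Further down the pathway ASN2 (asparagine synthetase), GLN1.2 (cytosolic glutamine synthetase), GLU1 (ferredoxin-dependent glutamate synthase) and UPM1 (which makes the sirohaem cofactor of nitrite reductase) rose by log2 fold changes of 0.92, 0.64, 0.65 and 0.41. ASN1, whose transcript is known to fall in the light, averaged 141 CPM in activation-tagged rosettes and 261 CPM in reference rosettes and did not pass the test (edgeR adjusted p = 0.212).

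The transporters did not move as a group. NRT1.5, which loads nitrate into the xylem, rose by a log2 fold change of 0.92 (SE 0.18, edgeR adjusted p = 0.0267). NRT1.7, which moves nitrate out of old leaves through the phloem, had 19.3, 20.7 and 23.0 CPM in activation-tagged rosettes, against 37.7, 51.3 and 63.0 CPM in reference rosettes. It was the only member that fell, by 1.27 on the log2 scale (SE 0.18, edgeR adjusted p = 0.0141), and without activation-tagged replicate 1 or 2 its edgeR adjusted p was 0.0555 or 0.0772. NRT1.1, the dual-affinity transporter and nitrate sensor, had 44.2, 36.0 and 37.3 CPM, against 55.0, 54.1 and 46.7 CPM, a log2 fold change of -0.41 (SE 0.10, edgeR adjusted p = 0.0509). NRT2.2 and NRT2.4, high-affinity transporters known mainly from roots, had 0 counts in all 6 libraries.
Among the members named, NIA1, NIA2, NIR1, BT2, LBD39, LBD38, ASN2 and HHO3 kept an adjusted p under 0.05 in all 14 alternatives. HHO2 lost its call without any library, and NRT1.5, UPM1 and GLN1.2 without 1 or more of them.

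**Figure D2:**
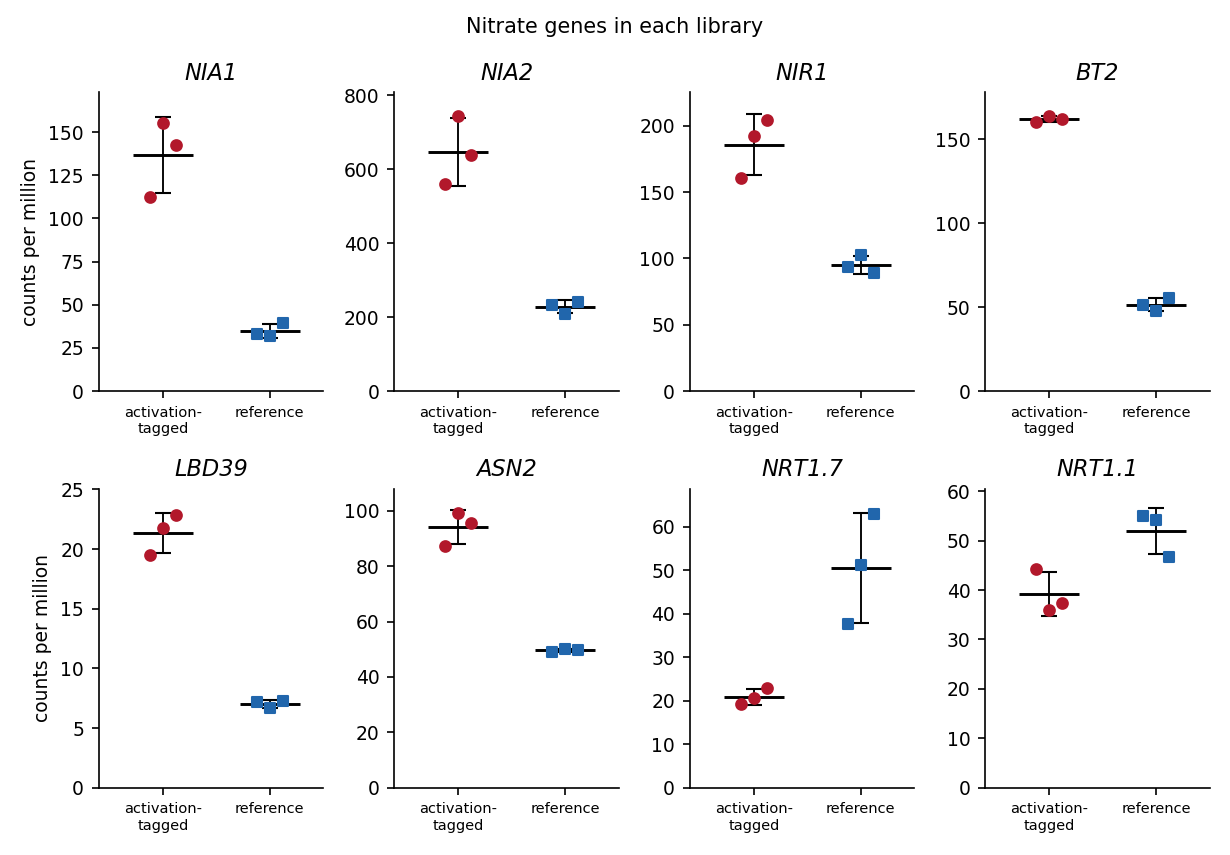
CPM of 8 nitrate genes in each library, activation-tagged left of reference; the bar is the mean and the whiskers are 1 SD of 3 libraries. The reductases, BT2, LBD39 and ASN2 are higher in all 3 activation-tagged libraries, NIA1 at 112 to 155 CPM against 31.6 to 39.5 CPM, while NRT1.7 and NRT1.1 are lower.

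Clock genes changed in both directions. The Arabidopsis clock is a circuit of repressors in which LHY and CCA1 act around dawn, the PRR proteins follow one another through the day, and TOC1 and the evening complex of ELF3, ELF4 and LUX act towards night. All 36 genes of the list were tested, 5 rose and 5 fell, beside the 3.33% of all genes tested that rose and the 2.03% that fell, and the median log2 fold change was 0.16. The rises were the dawn genes LHY and CCA1, the morning genes PRR9 and LNK2, and RVE4, a relative of LHY. The falls were PRR3, BOA (a relative of LUX), ELF4, FKF1 (a blue-light receptor of the afternoon) and TOC1.

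LHY had 4.47, 4.93 and 4.51 CPM in activation-tagged rosettes, against 1.17, 1.62 and 2.17 CPM in reference rosettes. CCA1 had 10.1, 17.0 and 15.3 CPM, against 6.26, 6.88 and 7.96 CPM. Neither gene had overlapping libraries, and the first activation-tagged library was the lowest of its line for both. The log2 fold changes were 1.49 (SE 0.23, edgeR adjusted p = 0.0103) for LHY and 1.01 (SE 0.19, edgeR adjusted p = 0.0268) for CCA1. The call of CCA1 was kept without activation-tagged replicate 1 and lost without any other library (edgeR adjusted p = 0.0646 to 0.0868).

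Of the genes that fell, PRR3 had 10.9, 8.72 and 6.85 CPM in the activation-tagged libraries, against 23.1, 25.4 and 19.0 CPM in the reference libraries. ELF4 had 5.12, 5.33 and 5.16 CPM, against 9.14, 10.8 and 10.6 CPM. PRR3 fell by 1.35 on the log2 scale (SE 0.18, edgeR adjusted p = 0.00777) and ELF4 by 0.97 (SE 0.12, edgeR adjusted p = 0.00467). BOA had 1.47, 0.985 and 1.39 CPM, against 2.75, 3.32 and 3.41 CPM, and fell by 1.29 (SE 0.23, edgeR adjusted p = 0.0167). FKF1 fell by 0.74 (SE 0.11, edgeR adjusted p = 0.00788) and TOC1 by 0.53 (SE 0.08, edgeR adjusted p = 0.0103).

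Some genes of the day, the afternoon and the evening did not pass the test. PRR7, a day-phase repressor, had a log2 fold change of 0.12 (SE 0.07, edgeR adjusted p = 0.354), PRR5, its successor, -0.04 (SE 0.07, edgeR adjusted p = 0.81) and GI, an afternoon protein that stabilises the TOC1 regulator ZTL, -0.15 (SE 0.09, edgeR adjusted p = 0.358). LUX and ELF3, the partners of ELF4, had 0.04 and -0.22 and did not pass either. LHY, LNK2, PRR3, ELF4, FKF1 and TOC1 kept an adjusted p under 0.05 in all 14 alternatives. Without activation-tagged replicate 2 or reference replicate 3 only 2 genes of the list rose, and without activation-tagged replicate 3 or reference replicate 1 there were 3. The falls stayed at 4 or 5. PRR9, RVE4 and BOA each lost their calls without at least 2 of the libraries.

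**Figure D3:**
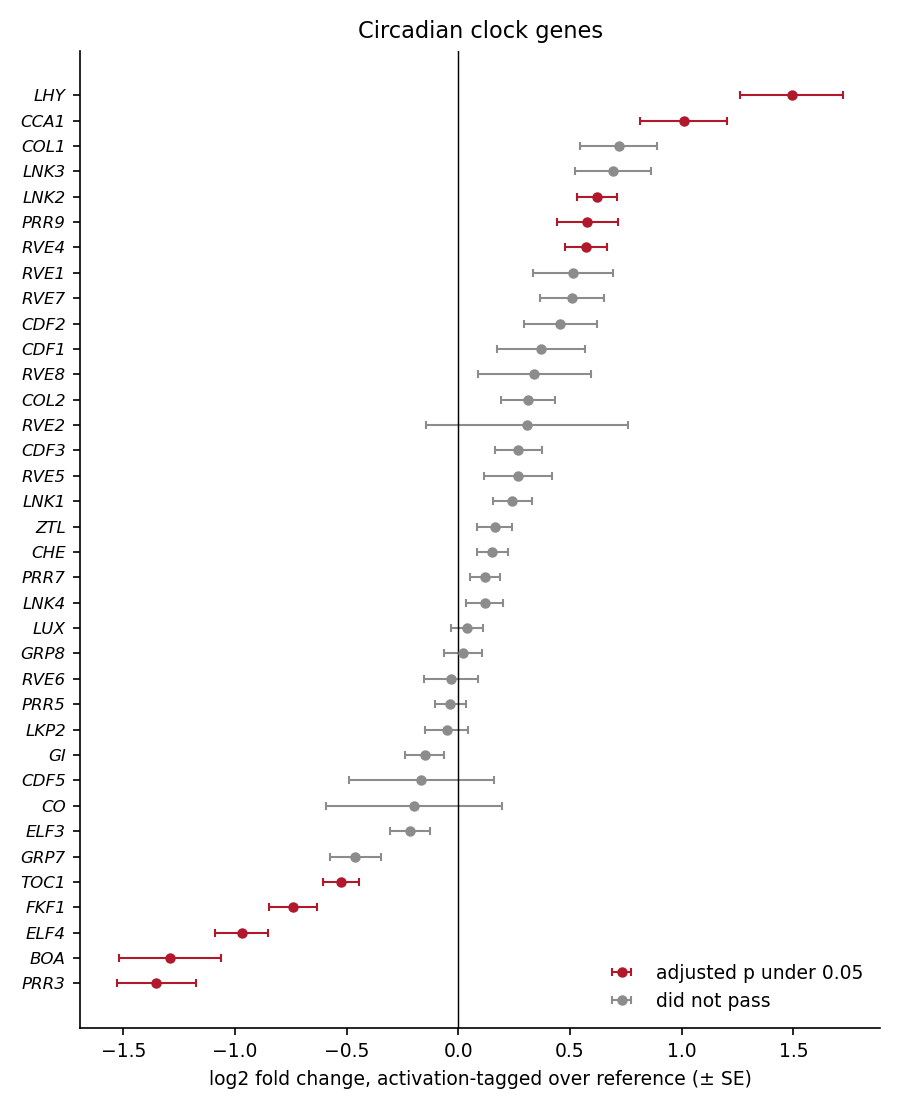
Log2 fold change, activation-tagged over reference, of the 36 clock genes, ordered by value; whiskers are standard errors and red points have an adjusted p under 0.05. LHY and CCA1 stand at the top with 1.49 and 1.01, and BOA and PRR3 at the bottom with -1.29 and -1.35.

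The evening element, AAATATCT, is the DNA word through which CCA1 and LHY are known to repress evening genes. It was searched on both strands in the 500 bases before each annotated gene start (RefSeq, TAIR10.1), where 8.95% of 18676 tested genes held it. Of the 5 clock genes that fell, TOC1, ELF4, BOA and FKF1 held it, of the 5 that rose none did, and of the 26 that did not pass the test 6 did, LUX and PRR5 among them. For each of the 4 genes that fell, 1 match is shown in capitals (as AGATATTT where the word lies on the other strand), on the strand of the gene.
TOC1, chr5:24674801-24674830: taaatatcatgAGATATTTtctccaagatg
ELF4, chr2:16735185-16735214: cactttacaatAAATATCTttagatatttc
BOA, chr5:24003834-24003863: atgcgggtaaaAGATATTTtagattatcta
FKF1, chr1:25508349-25508378: caaacaaaaacAAATATCTtccctcaaatc
The matches lie at varied distances, with their last base 144 bases before the gene start in TOC1, 243 in ELF4, 36 in BOA and 272 in FKF1. A match describes the sequence and does not show binding.

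Among redox genes, iron superoxide dismutase stood out in size and the copper/zinc enzymes moved the other way. Superoxide dismutases turn superoxide into hydrogen peroxide, and plants are known to swap the copper enzymes CSD1 and CSD2 for the iron enzyme FSD1 when copper is scarce. FSD1 had 599, 480 and 535 CPM in the activation-tagged libraries, against 69.9, 82.1 and 16.0 CPM in the reference libraries. The lines were far apart, and reference replicate 3 lay well under the other reference libraries. The log2 fold change of 3.26 (SE 0.66) did not pass (edgeR adjusted p = 0.0702). Without reference replicate 3 the log2 fold change was 2.82 with an edgeR adjusted p of 0.000329, while the fits without any other library gave 0.122 to 0.169. On all 6 libraries DESeq2 and limma voom gave FSD1 adjusted p-values of 3.45e-05 and 0.0132, the edgeR fit of all 15 libraries 0.0407, and the edgeR fit without a filter on low counts 0.104.

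CSD2, the plastid copper/zinc enzyme, had 704, 745 and 688 CPM in activation-tagged rosettes, against 954, 1026 and 1044 CPM in reference rosettes. CSD1, its cytosolic counterpart, had 285, 277 and 230 CPM, against 398, 356 and 367 CPM. Both fell by 0.50 on the log2 scale (edgeR adjusted p = 0.00681 for CSD2 and 0.0212 for CSD1). CCS, the chaperone that loads copper into them, fell by 0.38 (edgeR adjusted p = 0.044). On the copper supply side, CCH (a copper chaperone), COPT1 (a copper importer) and YSL2 (a metal-nicotianamine transporter) rose by 0.81, 0.49 and 1.03. CCH and COPT1 kept their calls in all 14 alternatives, whereas YSL2 lost its call without any library (edgeR adjusted p = 0.0707 to 0.118), as CCS did without any library but reference replicate 1, and CSD1 without activation-tagged replicate 3 or reference replicate 1 or 3. In the whole list of 18 genes, 14 were tested, 3 rose and 3 fell, beside 3.33% and 2.03% of all genes, and the median log2 fold change was -0.13. SPL7, the master regulator of copper scarcity, had 0.22 (edgeR adjusted p = 0.201), and COPT2 and CITF1, copper-scarcity genes, were too low to be tested. In the 500 bases before the start of FSD1 the GTAC core that SPL7 is known to bind (both strands) occurred once, and 58.0% of all tested genes held it. Of the list of iron status genes FRO3, a ferric reductase, fell by 0.64 (edgeR adjusted p = 0.037), as 1 of 18 tested, a call kept without activation-tagged replicate 2 and lost without any other library.

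Catalases split. CAT2, the catalase of leaf peroxisomes that removes hydrogen peroxide from photorespiration, had 466, 621 and 573 CPM in the activation-tagged libraries, against 243, 299 and 277 CPM in the reference libraries. Its log2 fold change was 1.02 (SE 0.12, edgeR adjusted p = 0.00463). CAT3, an evening-phased catalase, had 4068, 3716 and 3409 CPM, against 4958, 5620 and 4484 CPM, and fell by 0.43 (SE 0.10, edgeR adjusted p = 0.0383). CAT1 and APX4, a thylakoid protein of the ascorbate peroxidase family, rose by 0.43 and 0.42. CAT2 kept its call in all 14 alternatives, while CAT1, CAT3 and APX4 each lost theirs without at least 2 of the libraries. The other ascorbate and glutathione enzymes did not pass, and the median of the 20 tested genes was 0.13. MDAR3, a monodehydroascorbate reductase, averaged 0.405 CPM in activation-tagged rosettes and 3.40 CPM in reference rosettes (log2 fold change -3.07, edgeR adjusted p = 0.0759).

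CC-type glutaredoxins, small plant-specific proteins that in part act with TGA factors to repress transcription, held the largest redox rise that passed. GRXC14 had 2.32, 1.79 and 2.42 CPM in activation-tagged rosettes, against 0.13, 0.116 and 0.211 CPM in reference rosettes. It was nearly absent from the reference line, and the log2 fold change was 3.82 (SE 0.36, edgeR adjusted p = 0.00152). With 5, 4 and 7 counts in the reference libraries, GRXC14 passed the filter on low counts through the activation-tagged libraries. Where at least 10 counts were required in every library, GRXC14 was not tested, and 3 of 16 tested glutaredoxins rose. On chromosome 4 a tandem cluster of near copies, which are induced by nitrate in Arabidopsis, was higher in part. GRXS4 had 11.6, 17.2 and 15.6 CPM, against 3.35, 4.56 and 6.93 CPM, and rose by 1.58 on the log2 scale (SE 0.28, edgeR adjusted p = 0.0273). GRXS7 and GRXS5 rose by 1.17 and 0.88, while GRXS3 and GRXS8 of the same cluster had 0.64 and 0.34 and did not pass (edgeR adjusted p = 0.0517 and 0.576). The counts of these near copies are uncertain, since the counting could split shared reads among them. GRXS10 and GRXC13 fell by 0.82 and 0.45, and each lost its call without at least 4 of the libraries. Of 21 genes 18 were tested, 4 rose and 2 fell, beside 3.33% and 2.03% of all genes, and the median was 0.22. Without activation-tagged replicate 2 or 3 only GRXC14 rose, with edgeR adjusted p-values of 0.00877 and 0.00852. TRX5, a cytosolic thioredoxin linked to defence, had 9.95, 8.98 and 6.22 CPM in activation-tagged rosettes, against 21.4, 29.5 and 39.0 CPM in reference rosettes, and fell by 1.84 (SE 0.27, edgeR adjusted p = 0.0202). The call of TRX5 was lost without activation-tagged replicate 1 or 2 or reference replicate 2 (edgeR adjusted p up to 0.09). TRXF1, a light-activating plastid thioredoxin, and 2CPB, a plastid peroxiredoxin, rose by 0.39 and 0.29, and 2CPB lost its call without any library.

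Most cold and drought genes had lower levels in the activation-tagged line, but few passed the test, and the reference libraries differed among themselves. Dehydrins and LEA-type proteins protect membranes and proteins when cells lose water, and galactinol synthases start the raffinose sugars that do the same. Of 28 genes 25 were tested and 3 fell, COR47, LTI30 and GOLS3, with a median log2 fold change of -1.04, against -0.01 for all genes, and 21 of the 25 below 0. Of all genes tested, 2.03% fell. On all 6 libraries DESeq2 called 10 falls in the list and limma voom 6, and edgeR called 7 when all 15 libraries shared 1 fit. The number that fell was 0 without any one activation-tagged library, 10 without reference replicate 1, 6 without reference replicate 2 and 2 without reference replicate 3. The summed level of the list was 3638 to 3793 CPM in activation-tagged libraries and 4478 to 7003 CPM in reference libraries.

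LTI30, a cold-induced dehydrin, had 1.59, 1.57 and 1.49 CPM in the activation-tagged libraries, against 5.84, 15.5 and 13.8 CPM in the reference libraries. COR47, another dehydrin, had 99.4, 97.04 and 96.5 CPM, against 206, 421 and 300.4 CPM. GOLS3, the cold-induced galactinol synthase, had 0.736, 0.474 and 0.353 CPM, against 2.62, 11.2 and 5.00 CPM. The activation-tagged libraries lay close together for the dehydrins, whereas the reference libraries spread by more than 2-fold, with replicate 2 the highest and replicate 1 the lowest in all 3 genes. LTI30 fell by 2.91 on the log2 scale (SE 0.39, edgeR adjusted p = 0.0137), COR47 by 1.66 (SE 0.26, edgeR adjusted p = 0.0264) and GOLS3 by 3.58 (SE 0.65, edgeR adjusted p = 0.0377). Without activation-tagged replicate 2 the edgeR adjusted p-values were 0.0796, 0.115 and 0.148.

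RD29A, the classic marker of cold and drought signalling, had 30.5, 24.3 and 18.1 CPM in activation-tagged rosettes, against 84.0, 370.1 and 180 CPM in reference rosettes. COR15A, a plastid protein that protects membranes from freezing, had 13.2, 32.3 and 28.3 CPM, against 61.9, 266 and 112 CPM. For neither gene did the lines overlap, and the log2 fold changes were -3.12 (SE 0.65, edgeR adjusted p = 0.0718) and -2.58 (SE 0.70, edgeR adjusted p = 0.129). Without reference replicate 1 the edgeR adjusted p of RD29A was 0.0315, and without any other library it was 0.0837 to 0.206. RAB18, a dehydrin that answers to abscisic acid, had 9.09, 11.2 and 15.4 CPM, against 9.30, 15.1 and 8.86 CPM, with overlapping libraries and a log2 fold change of 0.10 (SE 0.27, edgeR adjusted p = 0.863). NCED3, the rate-limiting enzyme of abscisic acid synthesis under drought, averaged 7.51 CPM in activation-tagged rosettes and 9.60 CPM in reference rosettes (log2 fold change -0.35, edgeR adjusted p = 0.418).

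In the wider abscisic acid list 27 of 32 genes were tested and only ABA1, the zeaxanthin epoxidase at the head of the pathway, rose, by 0.69 on the log2 scale (edgeR adjusted p = 0.0071). CBF1, CBF2 and CBF3, the factors that switch on cold genes, averaged 1.09, 2.22 and 2.28 CPM in activation-tagged rosettes, against 1.78, 2.88 and 3.22 CPM in reference rosettes, and none passed. Of the 13 plasma membrane aquaporins, which are water channels, PIP1;4 alone rose, by 0.50 (edgeR adjusted p = 0.0471). Its call was kept in 6 of 14 alternatives and lost without any library but activation-tagged replicate 2, where the edgeR adjusted p was 0.0291 against at most 0.124 in the others.

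**Figure D4:**
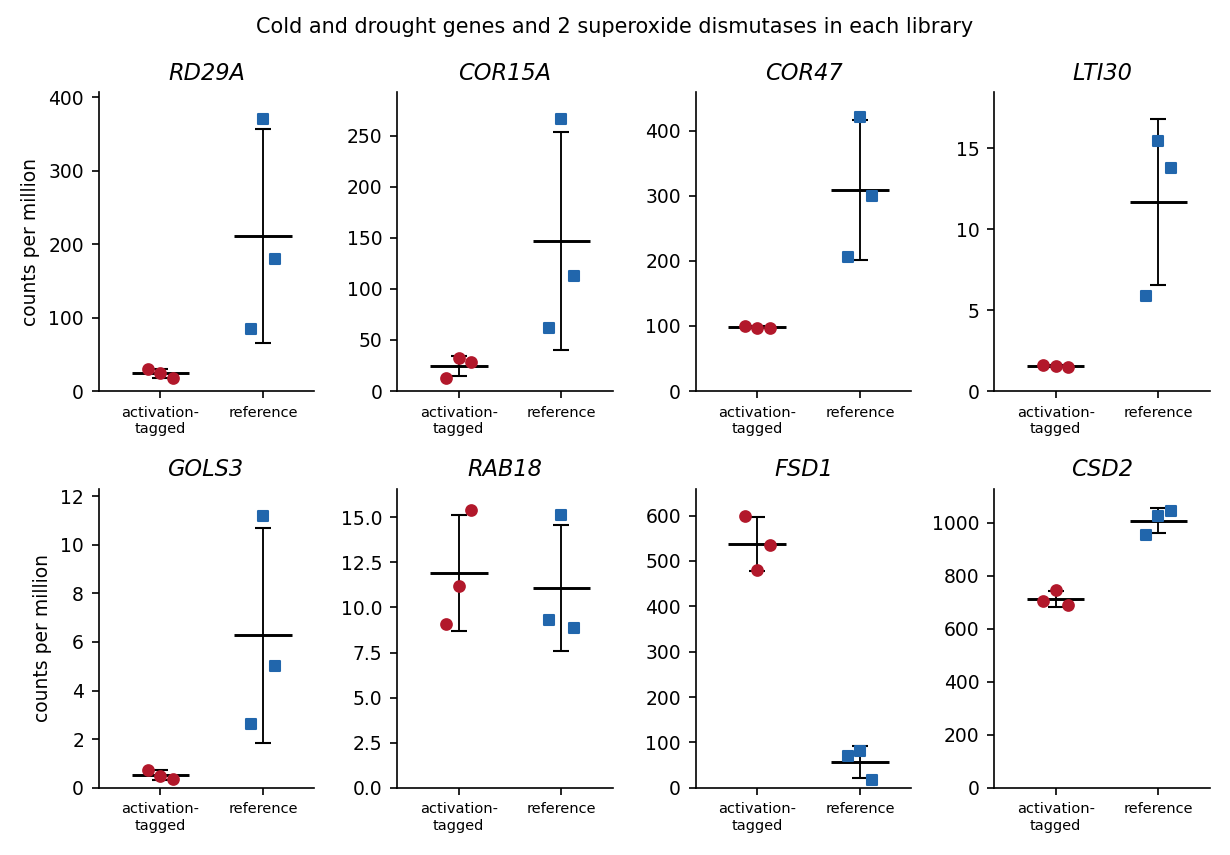
CPM of 6 cold and drought genes and of the superoxide dismutase genes FSD1 and CSD2 in each library, activation-tagged left of reference; the bar is the mean and the whiskers are 1 SD of 3 libraries. RD29A stands at 18.1 to 30.5 CPM against 84.0 to 370.1 CPM, RAB18 overlaps between the lines, and FSD1 stands at 480 to 599 CPM against 16.0 to 82.1 CPM.

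The drought-responsive element that CBF factors bind (ACCGAC or GCCGAC, both strands) was searched in the same 500-base windows, where 13.74% of the tested genes held it. It was present in 13 of the 25 tested list members, which are all 3 genes that fell and 10 of the 22 that did not pass, RD29A and COR15A among these 10. A match of each of 4 genes is shown in capitals, on the strand of the gene and as GTCGGT or GTCGGC where the word lies on the other strand.
LTI30, chr3:18940552-18940581: aaccactactacACCGACgtcttacttgcc
COR47, chr1:7087224-7087253: ttggtatcatgtGTCGGTagagtgaccacc
GOLS3, chr1:3019411-3019440: cataaatagtagGTCGGCcatgggtcggac
RD29A, chr5:21240614-21240643: aataaatatcatACCGACatcagtttgaaa
These windows show sequence only, and the counts do not tell whether any of the sites was in use.

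Photorespiration, the recycling of the oxygenation product of Rubisco through peroxisome and mitochondrion, rose by small amounts. All 16 genes were tested, 11 rose and none fell, none of them by 2-fold, beside 3.33% of all genes that rose and 2.03% that fell, with a median log2 fold change of 0.41. GLDP1, the P subunit of glycine decarboxylase, had 1006, 1199 and 1195 CPM in the activation-tagged libraries, against 623, 686 and 781 CPM in the reference libraries, a log2 fold change of 0.70 (SE 0.10, edgeR adjusted p = 0.00796). GGT1, the peroxisomal glutamate:glyoxylate aminotransferase, had 2157, 2495 and 2371 CPM, against 1436, 1473 and 1508 CPM, a log2 fold change of 0.67 (SE 0.07, edgeR adjusted p = 0.00271). GLDT, the T subunit, whose promoter in F. trinervia is the one on the T-DNA, rose by 0.39 as the Arabidopsis gene. The call of GLDT was kept in 7 of 14 alternatives and lost without any library but activation-tagged replicate 2. The count of rises was 5 without activation-tagged replicate 3, 6 without reference replicate 3, 7 without activation-tagged replicate 2 and 2 when all 15 libraries shared 1 fit. Of 20 genes of the photosystems, antenna and Rubisco, 4 rose (RCA, RBCS2B, LHCB1.1 and LHCB5, by 0.30 to 0.58), beside the same 3.33%, and the count was 1 without activation-tagged replicate 3, 2 without activation-tagged replicate 1 and 0 when all 15 libraries shared 1 fit. Reads of LHCB1.1 may be shared with its near copies.

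Of 6 markers of epidermis and of guard cells, which border the stomata, 5 were tested and 3 fell. Of all genes tested, 2.03% fell. KAT1, an inward potassium channel of guard cells, had 24.4, 28.4 and 27.3 CPM in activation-tagged rosettes, against 41.3, 51.8 and 38.9 CPM in reference rosettes. FAMA, a factor that sets guard cell fate, had 13.9, 13.2 and 15.2 CPM, against 21.9, 21.8 and 22.9 CPM. TGG1, a myrosinase found in guard cells, had 2286, 2157 and 2615 CPM, against 3824, 4397 and 4805 CPM. The lines were apart for all 3 genes, with log2 fold changes of -0.72, -0.65 and -0.88 (edgeR adjusted p = 0.0112, 0.00634 and 0.00424). MYB60, a guard cell factor, had -0.27 and the trichome and root hair gene GL2 0.14, and neither passed (edgeR adjusted p = 0.198 and 0.749). Whole rosettes do not show in which cells these genes fell. In them, fewer cells of a type and less RNA per cell cannot be told apart. The 3 falls were called in each fit that left out a library.

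The remaining lists stand beside the 3.33% of all genes tested that rose and the 2.03% that fell. Of 27 cell wall loosening genes, all tested, 3 fell and 1 rose. The expansins EXPA3 and EXPA8 fell by 0.93 and 0.84, the endoglucanase GH9B8 fell too, and XTH30 rose by 0.67. Of 14 tested cytokinin genes 2 fell. The oxidases CKX4 and CKX6, which break the hormone down, fell by 0.68 and 0.65. Of 7 tested sulfur deficiency genes 1 rose, APR2, which reduces activated sulfate, by 0.64. In the list of JMJ14 partners, gene silencing and DNA methylation, 23 were tested, and beside NAC052 itself only RDR2, an RNA-dependent RNA polymerase, rose, by 0.63, and ROS1, a DNA demethylase, fell by 0.36. Of these genes, EXPA3, CKX4 and APR2 kept their calls without each library, XTH30 and RDR2 lost theirs without any library, and EXPA8, GH9B8, CKX6 and ROS1 without 1 or more. None of the 13 genes of salicylic acid and defence passed, with a median of -0.38, nor of the 7 jasmonate genes, with a median of -1.04, nor of the 6 tested senescence genes, with a median of -0.21, and DESeq2 called 4, 2 and 0 of them. At an unadjusted edgeR p under 0.05, 5, 2 and 0 were lower and none higher. PR2, a defence glucanase, averaged 5.26 CPM in activation-tagged rosettes and 44.0 CPM in reference rosettes (log2 fold change -3.06, edgeR adjusted p = 0.0965).

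**Figure D5:**
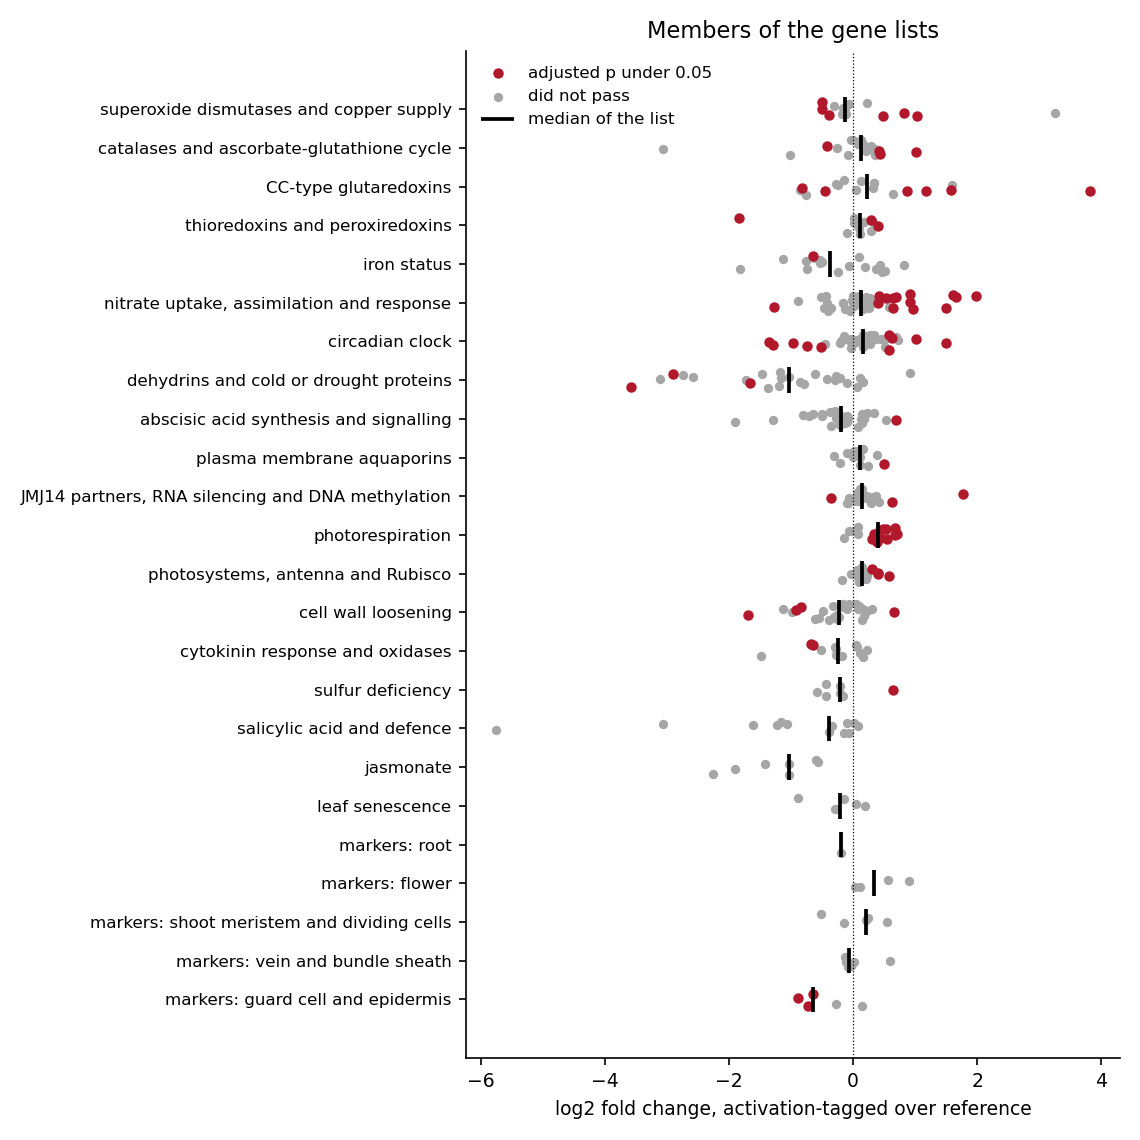
Log2 fold change, activation-tagged over reference, of each tested member of the 24 gene lists; red points have an adjusted p under 0.05 and black bars are list medians. Red points gather right of 0 for nitrate and photorespiration genes, lie on both sides for clock genes, and the medians of the cold and drought and the jasmonate lists are at -1.04.

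Beyond the lists, 1 gene was silent in the activation-tagged line. AT1G52450, annotated as a ubiquitin carboxyl-terminal hydrolase-related protein at chr1:19541577-19546357, had 0, 0 and 1 counts in the activation-tagged libraries, against 52, 79 and 58 counts in the reference libraries. The ratio of the scaled sums was 175-fold lower in the activation-tagged line, with a 95% counting interval of 31.0 to 6930-fold, and the fitted test gave an edgeR adjusted p of 0.00152. AT1G52430, a gene of the same family 2 places away, had 0, 0 and 0 counts, against 8, 13 and 12 counts, while the 3 other neighbours had no counts in any of the 6 libraries. No gene was silent in the reference line by the same rule (at most 3 counts in each library of a line and at least 30 in each of the other).

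FLC, the MADS-box repressor of flowering, had 0 counts in all 3 activation-tagged libraries, against 16, 74 and 78 counts in the reference libraries. With 3 counts per library as the floor it was at least 17.6-fold lower in the activation-tagged line (edgeR adjusted p = 0.0441). Its call was lost without any activation-tagged library (edgeR adjusted p = 0.0906 to 0.102) and without reference replicate 2 or 3 (0.11 and 0.112). An annotated antisense RNA covers the locus and had at most 9 counts in any library. UFC, the neighbouring gene, had a log2 fold change of 0.31 (edgeR adjusted p = 0.133).

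The other large falls that met the rule for naming genes were of varied function. SOT15, which sulfates hydroxyjasmonate, had 4.27, 3.90 and 1.09 CPM in activation-tagged rosettes, against 32.1, 102 and 54.7 CPM in reference rosettes. It fell by 4.37 on the log2 scale (SE 0.72, edgeR adjusted p = 0.0439), a call held without only 1 of the 6 libraries, reference replicate 1. ATGRP9, a glycine-rich protein, had 1.09, 1.28 and 0.326 CPM, against 7.92, 13.3 and 12.1 CPM, and fell by 3.66 (SE 0.44, edgeR adjusted p = 0.01). MIOX2, a myo-inositol oxygenase that feeds cell wall sugars, and AT4G20970, a basic helix-loop-helix factor, fell by 3.19 and 3.08. AT3G22600 (a lipid-transfer protein), ERDJ3A (a DnaJ chaperone), ABCG30 (a transporter) and PER39 (a peroxidase) completed the 12, at -4.04 to -2.46. ATGRP9 and AT4G20970 kept their calls without each library, PER39 lost its call without any library, and MIOX2, AT3G22600, ERDJ3A and ABCG30 without 1 or more.

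The largest rises that met the rule for naming genes lay mostly in genes of low level. ASE3, the third copy of the first enzyme of purine synthesis, had 46, 69 and 23 counts in the activation-tagged libraries, against 1, 0 and 0 counts in the reference libraries. The scaled ratio was 149-fold higher in the activation-tagged line, with a 95% counting interval of 26.4 to 5940-fold (edgeR adjusted p = 0.00669). AT4G38870, an F-box gene 252 bases away on the opposite strand, had 1.18, 1.97 and 0.435 CPM, against 0.104, 0.0289 and 0.0301 CPM, and rose by 4.31 on the log2 scale (SE 0.75, edgeR adjusted p = 0.0155). AT4G40020, annotated as myosin heavy chain-related, had 1.85, 2.45 and 2.55 CPM in activation-tagged rosettes, against 0.026, 0.173 and 0.0301 CPM in reference rosettes, and rose by 4.85 (SE 0.53, edgeR adjusted p = 0.00307). ATPP2-A2 (a phloem-type lectin) and AT4G15710 (cystatin-like) rose by 2.77 and 2.79, and AT3G26460, AT2G32550, AT2G21220 (a SAUR-type auxin-responsive gene), MYOB5 (a myosin-binding protein) and BGLU11 (a beta glucosidase) rose by 2.18 to 3.71. GRXC14 and NIA1 were also among the 12. The calls of AT4G38870, AT2G32550, AT2G21220 and BGLU11 were each lost without at least 2 of the libraries.

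Chromosome 4 held 19 of the 58 differential rises among 2858 tested genes, or 0.665% of its genes, against 0.161 to 0.323% on the other chromosomes. The falls were spread at 0.462 to 0.826% per chromosome, and the median log2 fold change lay between -0.02 and 0 on every chromosome.  Of the 58 rises, 14 genes formed 7 pairs of neighbours among the tested genes, whereas 6 of the 130 falls formed 3 pairs. Beside NAC052 and NAC053, ASE3 and AT4G38870, and the glutaredoxins GRXS7 and GRXS4, the pairs that rose were LHY with AT1G01070 (a transporter), LBD39 with AT4G37550 (a formamidase-type enzyme), AT3G26460 with AT3G26470, and AT4G34930 with ARO1 (an armadillo repeat protein). The genes of these pairs outside the lists were named after their values were seen.

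The other 3 lines were sequenced on lane 8, so their levels stand here only beside those of lane 1, scaled over all 15 libraries. NAC052 averaged 21.6 ± 1.34 CPM in CRISPR/Cas, 157 ± 127 CPM in GLDT::NAC052 and 47.8 ± 20.9 CPM in GLDT::5'truncatedNAC052 (SD, n = 3 each), beside 68.6 ± 9.97 CPM in the activation-tagged line and 19.9 ± 0.59 CPM in the reference line. BT2 averaged 175 ± 2.0 CPM in the activation-tagged line, 41.7 to 44.6 CPM in the other transgenic lines and 55.3 ± 4.06 CPM in the reference line. LBD39 averaged 23.0 ± 1.85 CPM in the activation-tagged line, 6.77 to 8.55 CPM in the other transgenic lines and 7.54 ± 0.335 CPM in the reference line. For both regulators the activation-tagged line had the highest mean of all 5 lines. LHY averaged 5.00 ± 0.271 CPM in the activation-tagged line, beside 4.96 ± 1.31 CPM in CRISPR/Cas, 2.13 ± 0.576 CPM in GLDT::NAC052, 1.46 ± 0.15 CPM in GLDT::5'truncatedNAC052 and 1.78 ± 0.545 CPM in the reference line. AT1G52450 averaged 0.00978 ± 0.0169 CPM in the activation-tagged line, 0.982 to 1.72 CPM in the other transgenic lines and 1.93 ± 0.51 CPM in the reference line, so of the 5 lines only the activation-tagged one had it near 0. FLC averaged 0 CPM in the activation-tagged line, 1.32 to 2.80 CPM in the other transgenic lines and 1.76 ± 1.14 CPM in the reference line.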

How the data were processed

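Rosette RNA of 15 samples, 3 biological replicates of each of 5 lines, was sequenced, and 6 libraries entered this comparison. The authors sequenced stranded single-end mRNA libraries, converted them with bcl2fastq, and trimmed and mapped the reads to TAIR10 in CLC Genomics Workbench. The deposited values are raw read counts per gene, without normalization, for 32833 genes. Whether counting used strand is not given in the sources used here, and 23 of the 112 genes named overlap a gene on the opposite strand. The table holds 6 more count columns that matched none of the sample labels, and these were left aside.

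Genes were kept by filterByExpr (10 counts at the median library, 15 in all), library sizes were scaled by TMM, and the lines were compared with the robust quasi-likelihood test of edgeR 4.0.16 in R 4.3.3, with Benjamini-Hochberg adjustment over all genes tested. Genes rose or fell at an adjusted p under 0.05 and were differential with a fold change above 2 or below 0.5 as well. Standard errors are the log2 fold change divided by the square root of F. The code was tested on simulated data. At the depths given, a gene at the minimum of 10 counts rests on few reads, and 3 counts were taken as the floor. Intervals and floors cover counting error only.

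Genes named are NAC052, NAC050 and their neighbours, the 12 largest rises and falls among differential genes with a mean of at least 1 CPM whose libraries do not overlap, differential list members, and a set of redox, nitrate, clock and drought genes. List members past the adjusted p alone were named after their values were seen, as were a few list members without a call. The members and the 24 lists (425 genes) were chosen with earlier results of these data known. Alternatives were other scalings and filters, DESeq2 1.42.0, limma voom 3.58.1, all 15 libraries, a replicate block, a fold limit of 1.5 and leaving out each library. Gene positions and sequences come from RefSeq (TAIR10.1), which held 32548 of the identifiers.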

Additional observations from a re-analysis of the deposited data

How the results depend on the processing

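Of 109 named genes with a fit besides NAC052, 97 were called, 35 of them under all alternatives run and 43 in every fit that left out a library. Differential genes numbered 353 (271 lower) with DESeq2 and 457 (190 higher, 267 lower) with a fold limit of 1.5, against 188, 58 higher and 130 lower, and leaving out a library gave 81 to 242 (31 to 52 higher, 50 to 201 lower). Without a fold limit DESeq2 called 1697 genes (949 higher, 748 lower), library totals alone 308 higher and 646 lower, and all 15 libraries in 1 fit 377 higher, against 1005, 624 higher and 381 lower; leaving out a library gave 312 to 706 (189 to 381 higher, 123 to 390 lower). The cause of these differences was not tested, other than that fewer libraries entered the fits without one.

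The NAC052 level lost its call when all 15 libraries shared 1 fit (log2 fold change 1.78, edgeR adjusted p = 0.137). No gene was silent in one line at 10 counts against 100. RAB18, which overlapped between the lines, had log2 fold changes of -0.137 without activation-tagged replicate 3, -0.008 without reference replicate 1 and -0.032 without reference replicate 3, in a range of -0.137 to 0.392. The counts over lists were chosen after seeing the data. In the list circadian clock, rose: 8 with DESeq2, 8 with the replicate block and 2 to 5 without a library. In the list photorespiration, rose: 2 with all 15 libraries and 5 to 8 without a library.

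Same-numbered libraries of the lines deviated together with r of 0.268, 0.057 and 0.066, against -0.217 to 0.142 for libraries of different numbers. The third activation-tagged library correlated best with the second reference library (0.142). These values do not settle whether the numbers pair the samples, and the main fit took no pairs. With a replicate block 257 genes were differential (71 higher, 186 lower) and 1365 passed without a fold limit. The block ended the calls of COR47 (edgeR adjusted p = 0.0569), TRX5, FRO3 and SOT15, and gave FSD1 and RD29A, which had no call, 0.145 and 0.178. Depth limits genes such as FLC and AT1G52450, whose levels in the activation-tagged line rest on 0 and 1 counts.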

Other observations

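Markers of the shoot meristem and dividing cells summed to 22.9 to 29.9 CPM in activation-tagged libraries and 21.3 to 30.4 CPM in reference libraries. None of the 5 tested was called by edgeR or DESeq2, and 1 was lower at an unadjusted edgeR p under 0.05.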
